A study of Mus musculus with 30 samples.

Results

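Immediate early and activity-regulated genes are genes whose transcription starts soon after a cell is stimulated, and 41 of them were followed in the hippocampus of mice that had been socially isolated (SI) or group-housed (GH). The 41 genes were chosen by name, as known activity-regulated genes, but with earlier results of these data known. Counts set beside the share of all genes below are therefore not those of a set picked blind to the data. All 41 were found by symbol among the 17477 genes of the deposited count table. The mice were adult C57 BL/6J animals of both sexes, kept singly from weaning onwards in the SI groups and in shared cages in the GH groups, and the labels name no engineered allele or drug in any group. Total RNA of frozen hippocampus was sequenced after poly(A) selection in 8 SI and 7 GH females and in 7 SI and 8 GH males, with 1 library per animal, and the comparison asked whether housing altered gene expression. All groups were killed with CO2 and decapitation. The mice had also been used for behavioural work, and the interval between a test and death is not given in the sources used here.

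In neurons, calcium entry through synaptic receptors and voltage-gated channels activates kinases that phosphorylate transcription factors such as CREB and the SRF partners, which already sit at the promoters of these genes. The first products are themselves transcription factors of the AP-1, EGR and NR4A families, followed by proteins that act at the synapse and by phosphatases that switch the kinases off again. In the hippocampus many of these messenger RNAs, though not all, are low at rest and rise briefly with seizures, novelty or learning. Several are widely used as marks of recently active neurons. The tissue was bulk hippocampus, so fewer active cells and less RNA per active cell cannot be told apart.

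Levels are given as CPM, read counts relative to the library total, scaled for library composition by the TMM method. Log2FC is the log2 fold change of SI against GH from a model of whole-table counts, fitted within each sex by the quasi-likelihood method of edgeR with surrogate variables, which are covariates estimated from the data to absorb unwanted variation. Adjusted p-values are those of Benjamini and Hochberg over all genes tested, and a gene is said to have risen or fallen where its adjusted p was under 0.05. For the 41 genes, the surrogate variables took up a median of 39.7% of the variance within housing groups in females and 41.1% in males. GH mice shared cages while SI mice were kept singly, and the labels do not say which mice shared a cage or a litter. The p-values therefore measure the spread between these mice, with each GH mouse counted as separate, and effects of the cage could not be modelled.

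Total counts per library ranged from 18809307 to 100844898, and the median was lower in SI males (25609585) than in GH males (49542256). Markers of dentate granule cells, CA1 and CA3 pyramidal cells and interneurons had counts in every library. The SI males 25, 33 and 39 stood apart from the other males on the first principal component, at 99.5, 86 and 61.4 against -35.2 to 1.3, and this component held 59.1% of the variance in males. Results in males are therefore also given without these 3 mice. The summed level of 5 endothelial markers moved with housing, from 169 to 212 CPM in SI and from 147 to 170 CPM in GH females, and from 168 to 308 CPM in SI and from 158 to 216 CPM in GH males. The summed level of 5 astrocyte markers ran the other way, from 1400 to 1960 CPM in SI and from 1730 to 2240 CPM in GH females, and from 1300 to 1880 CPM in SI (median 1380) and from 1500 to 1920 CPM in GH males (median 1700). In SI males 25, 33 and 39 the sums of 6 microglia markers (476 to 560 CPM), 6 oligodendrocyte markers (8160 to 10500 CPM) and the endothelial markers (255 to 308 CPM) lay above those of the other 4 SI males (316 to 362, 5160 to 7880 and 168 to 213 CPM) and of the GH males (318 to 391, 5830 to 7690 and 158 to 216 CPM). In mice 25, 33 and 39 the CA1 sums (535 to 582 CPM) were lower than in the other males. They were 589 to 812 CPM in the other 4 SI males and 622 to 866 CPM in GH males. Dentate granule cell sums were 263 to 302, 335 to 395 and 275 to 393 CPM in the same order. Interneuron sums were 858 to 915, 695 to 850 and 655 to 808 CPM. CA3 sums were 263 to 303, 234 to 270 and 214 to 263 CPM. The summed level of 6 choroid plexus markers, a tissue that borders the hippocampus, ran from 38.8 to 4100 CPM in SI males and from 39.7 to 2230 CPM in GH males. The part of these markers in the results below was not tested.

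Activity-regulated promoters are known for the cyclic AMP response element (CRE), bound by CREB, and for the CArG box, bound by SRF. The 250 bases upstream of the start were available from RefSeq (GRCm38.p6) for 32 of the 41 genes and for 27025 genes in all, with some genes having several starts, and motifs were searched on both strands. The 9 genes without an entry were Arc, Egr1, Egr3, Trib1, Dusp4, Sik1, Ier2, Crem and Nptx2. A gene was counted where any of its windows held the motif. The CRE core, TGACG, was present in 20 of the 32 (62.5%) and in 19.8% of all genes with a promoter entry. The whole CRE, TGACGTCA, which contains the core on both strands, was present in 4 of the 32 (12.5%), Btg2, Dusp1, Maff and Plk2, and in 1.77% of all. The EGR site, GCGNGGGCG, was found in 10 (31.2%) against 5.33%, the CArG box in 2 (6.25%), Dusp5 and Egr2, against 1.62%, and the AP-1 site, TGANTCA, in 0 against 7.82%. These are matches of letters and not measured binding, and sites farther upstream were not searched. Below are the upstream stretches of 4 genes that varied together between mice, Fos, Egr2, Nr4a1 and Dusp1, and of Dusp14, the 1 gene of the set that rose in SI females, each 5′ to 3′ towards the start, with CRE cores or whole CREs on either strand and the CArG box in capitals.
Fos: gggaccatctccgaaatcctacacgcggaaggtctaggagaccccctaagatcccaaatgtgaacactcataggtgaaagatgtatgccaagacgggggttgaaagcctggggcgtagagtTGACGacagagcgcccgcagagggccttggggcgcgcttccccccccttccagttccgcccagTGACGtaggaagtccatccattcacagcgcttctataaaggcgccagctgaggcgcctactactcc
Egr2: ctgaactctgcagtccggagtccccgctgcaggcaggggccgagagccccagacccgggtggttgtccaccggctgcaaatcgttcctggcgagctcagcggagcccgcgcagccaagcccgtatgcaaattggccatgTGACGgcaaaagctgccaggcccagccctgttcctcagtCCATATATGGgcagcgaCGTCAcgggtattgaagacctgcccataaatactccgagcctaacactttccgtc
Nr4a1: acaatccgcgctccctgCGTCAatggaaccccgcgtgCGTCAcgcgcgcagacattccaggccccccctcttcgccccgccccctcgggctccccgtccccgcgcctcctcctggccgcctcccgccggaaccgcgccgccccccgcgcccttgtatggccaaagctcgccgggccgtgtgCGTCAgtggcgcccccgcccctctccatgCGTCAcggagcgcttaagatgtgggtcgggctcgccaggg
Dusp1: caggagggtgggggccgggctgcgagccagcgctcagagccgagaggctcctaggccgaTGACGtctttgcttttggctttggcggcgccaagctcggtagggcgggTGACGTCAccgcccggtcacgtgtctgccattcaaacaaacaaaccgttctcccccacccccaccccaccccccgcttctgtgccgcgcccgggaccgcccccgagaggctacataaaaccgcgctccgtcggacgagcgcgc
Dusp14: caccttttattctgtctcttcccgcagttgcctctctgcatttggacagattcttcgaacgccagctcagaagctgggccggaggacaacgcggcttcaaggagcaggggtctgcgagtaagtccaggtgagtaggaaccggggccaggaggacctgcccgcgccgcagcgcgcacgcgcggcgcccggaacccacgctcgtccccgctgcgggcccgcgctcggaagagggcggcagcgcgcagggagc
The Fos stretch lies at chr12:85473640-85473889 on the plus strand and has cores starting 129 and 66 bases upstream. The Egr2 stretch, at chr10:67537619-67537868 on the plus strand, is 1 of 5 windows for that gene and has cores at 111 and 55 bases around a CArG box at 72 bases. The Nr4a1 stretch, at chr15:101266596-101266845 on the plus strand, holds 4 cores, at 233, 213, 69 and 40 bases upstream. The Dusp1 stretch, at chr17:26508473-26508722 on the minus strand, holds a core at 191 bases and a whole CRE that starts at 143 bases and gives the further core at 140 bases. The Dusp14 stretch, at chr11:84068358-84068607 on the minus strand, holds none of the motifs searched.

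In females, 1 of the 41 genes passed the adjusted threshold, the phosphatase gene Dusp14, which rose, beside 624 of 16026 genes tested (3.89%, of which 0.961% of the genes tested were higher and 2.93% lower). At an unadjusted p under 0.05, 11 of the 41 were higher in SI, where 9.29% of all genes were, and 0 were lower, where 11% of all genes were. Besides Dusp14 these were Nfil3, Nptx2, Plk2, Homer1, Dusp4, Klf4, Egr1, Inhba, Atf3 and Egr3. The classical markers Fos, Arc, Npas4 and Nr4a1 were not among them. Over the 41 genes the median Log2FC was 0.05, against 0.008 over all genes, with 25 higher and 16 lower in SI.

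In males, 0 of the 41 genes and 0 of 15833 genes (0%) passed the adjusted threshold in edgeR, while 2060 genes (13%) had an unadjusted p under 0.05. At that unadjusted p, 12 of the 41 were lower in SI, where 7.38% of all genes were, and 1 was higher, where 5.63% were. The 12 were Fosb, Fosl2, Egr2, Tiparp, Nr4a1, Arc, Fos, Egr3, Dusp1, Trib1, Homer1 and Egr1, and the 1 was Klf4. The median Log2FC was -0.14, against -0.002 over all genes, and 30 genes were lower and 11 higher in SI. By DESeq2 with the same surrogate variables 1 of the 41 fell, Fosb (adjusted p = 0.0496), beside 44 genes called in the whole table. Without surrogate variables 1 fell, Arc (adjusted p = 0.0492), beside 304 genes called. These were 0.353% and 10.3% of the genes to which DESeq2 gave an adjusted p, which were fewer than the 15833 tested in edgeR.

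SI and GH mice overlapped for all 41 genes in both sexes, where 0.312% of all genes tested did not overlap in females (0.0874% higher in SI, 0.225% lower) and 0.0568% in males (0.0316% higher, 0.0253% lower). The spread between mice was larger in SI than in GH on the log2 scale for 35 of the 41 genes in males and for 25 in females. The share of all genes with a larger spread in SI is not given here, so these counts have no background. The SI males that stood apart on the first principal component of the whole table enter the male SI spread, and their part in it was not tested. In males, mouse 25 was the lowest SI mouse for 23 of the genes and mouse 8 the highest for 19. In SI females the lowest value was shared out over all 8 mice, and mice 45 and 68 were highest for 13 and 11 of the genes. These counts have no background over all genes either. Mice 25 and 8 were also the highest and lowest males on the first principal component, at 99.5 and -35.2. The part of that component in the counts was not tested.

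**Figure D1:**
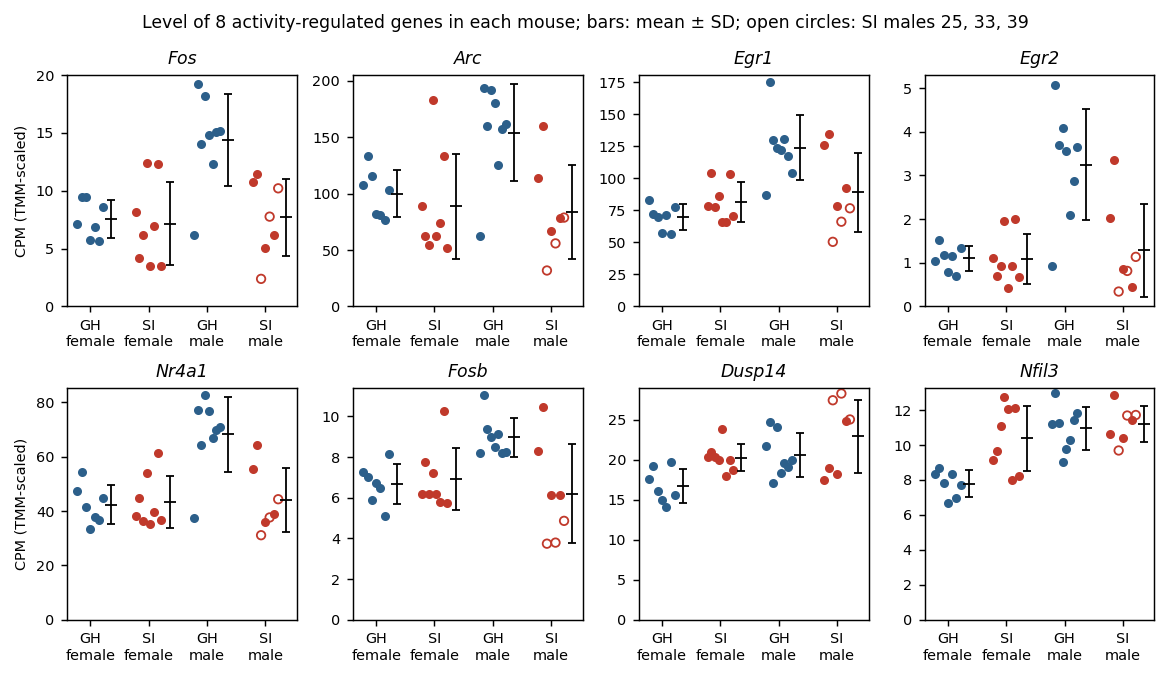
Level of 8 genes in each mouse, in CPM on linear axes starting at 0, for GH (blue) and SI (red) females and males. Each point is 1 mouse, bars are the mean ± SD of the group (n = 7 or 8), and open circles are SI males 25, 33 and 39. Fos and Nr4a1 in all 7 SI males lie below all GH males except 1, and 6 of 8 SI females lie above the highest GH female for Dusp14 and Nfil3.

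**Figure D2:**
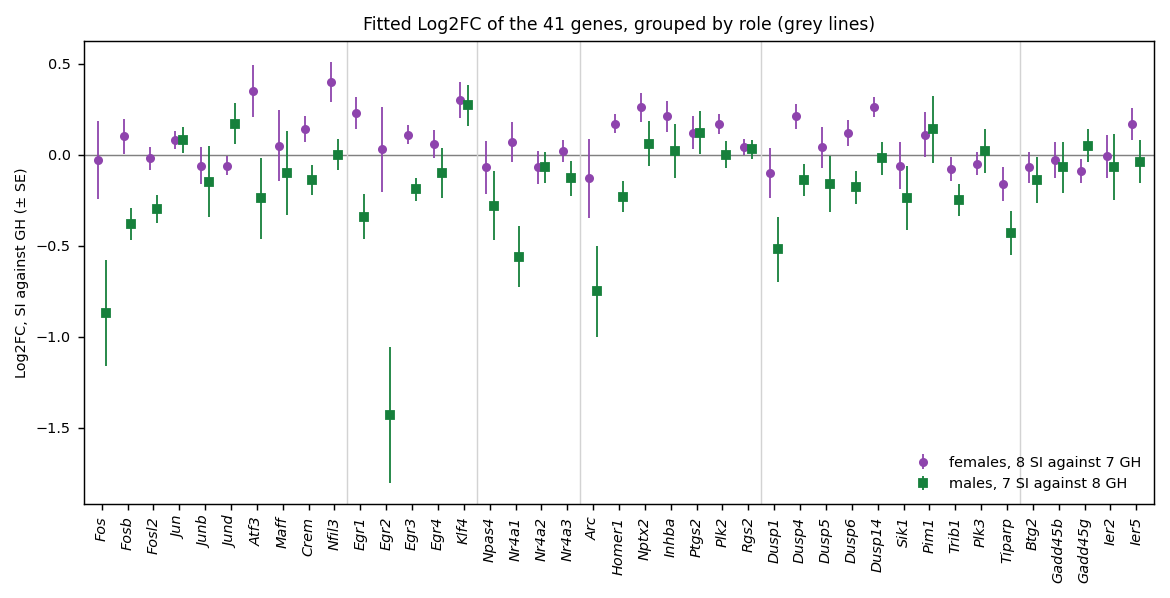
Fitted Log2FC of SI against GH with its standard error for each of the 41 genes, in females (purple circles) and males (green squares), ordered by role with grey lines between roles. Male values reach down to -1.43 for Egr2, while female values stay between -0.16 and 0.40.

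A group of 10 genes encodes AP-1 and related basic leucine zipper factors, which pair with one another on DNA. In females 2 of the 10 were higher at an unadjusted p under 0.05 and 0 lower, and in males 0 were higher and 3 lower. Fos, the founding member of AP-1 and the usual mark of active neurons, measured from 2.38 to 11.5 CPM in SI males (median 7.76) and from 6.17 to 19.2 CPM in GH males (median 15). All 7 SI males were below the 7 highest GH males, which began at 12.3 CPM, and only GH male 1, at 6.17 CPM, lay among them. The Log2FC of Fos in males was -0.87 (SE 0.29, edgeR adjusted p = 0.312). In SI females Fos ran from 3.48 to 12.4 CPM (median 6.57), on both sides of the GH females at 5.64 to 9.46 CPM (median 7.11). There 3 SI mice were under the lowest GH mouse and 2 above the highest, and the Log2FC was -0.03 (SE 0.213, edgeR adjusted p = 0.961). The Fos counts behind these values were as low as 56 reads, in SI male 25.

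Fosb, whose stable splice product builds up with repeated stimulation, measured from 3.74 to 10.4 CPM in SI males (median 6.15) and from 8.17 to 11 CPM in GH males (median 8.76). Of the 7 SI males 5 were below every GH male, and 1, mouse 8, was above all GH males except the highest. The Log2FC was -0.38 (SE 0.089, edgeR adjusted p = 0.295). In females Fosb measured from 5.73 to 10.3 CPM in SI (median 6.19) and from 5.09 to 8.14 CPM in GH (median 6.72), largely within the same range, with a Log2FC of 0.10 (SE 0.097, edgeR adjusted p = 0.62).

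Fosl2, another Fos relative, measured from 26.2 to 57.8 CPM in SI males (median 32.9) and from 43.5 to 60.4 CPM in GH males (median 52.4). Again 5 of 7 SI males were below the lowest GH male, and the Log2FC was -0.30 (SE 0.0758, edgeR adjusted p = 0.295). In females it measured from 34.7 to 57.8 CPM in SI (median 42.7) and from 38.9 to 49.7 CPM in GH (median 47), with a Log2FC of -0.02 (SE 0.063, edgeR adjusted p = 0.903). SI females thus lay on both sides of the GH females, as for Fos.

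Nfil3, a repressor of the same structural class that also acts in the circadian clock, measured from 7.98 to 12.7 CPM in SI females (median 10.4) and from 6.65 to 8.71 CPM in GH females (median 7.84). All 8 SI females exceeded the GH median and 6 exceeded every GH female, and the Log2FC of 0.40 (SE 0.11, edgeR adjusted p = 0.0512) fell just short of the threshold. It passed by DESeq2 (adjusted p = 0.00857), with 1 surrogate variable fewer or more (0.049 and 0.0367), without the filter on low counts (0.0382), with the length and GC trend removed (0.0286), with all groups in 1 fit (0.0253) and by DESeq2 without surrogate variables (0.0189). It did not pass without surrogate variables in edgeR (0.106), with the position digit in their place (0.12), by limma-voom (0.0692) or with DESeq2 size factors (0.052), and without 1 mouse it passed in 5 of 15 refits. In males Nfil3 measured from 9.69 to 12.9 CPM in SI (median 11.5) and from 9.01 to 13 CPM in GH (median 11.2), with no separation and a Log2FC of 0.00 (SE 0.0839). Jund, the AP-1 member with the highest level per kilobase in GH females, at 86.5 CPM per kilobase, measured from 223 to 280 CPM in SI and 213 to 301 CPM in GH females, and from 218 to 407 CPM in SI and 241 to 302 CPM in GH males. Fitted Log2FC of the other genes of this role, Jun, Junb, Atf3, Maff and Crem, lay within the range of the 10, from -0.06 to 0.40 in females and from -0.87 to 0.17 in males.

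The 4 EGR factors and Klf4 are zinc finger factors that bind GC-rich promoters. In females 3 of the 5 were higher at an unadjusted p under 0.05 and 0 lower, and in males 1 was higher and 3 lower. Egr1, which is needed for lasting forms of synaptic potentiation, measured from 65.8 to 104 CPM in SI females (median 77.9) and from 56.6 to 83.2 CPM in GH females (median 71.3), with a Log2FC of 0.23 (SE 0.087, edgeR adjusted p = 0.139). In males it measured from 50.4 to 135 CPM in SI (median 78.2) and from 86.9 to 175 CPM in GH (median 123), with a Log2FC of -0.34 (SE 0.125, edgeR adjusted p = 0.33). Thus 3 of 8 SI females were above every GH female, while 4 of 7 SI males were below every GH male.

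Egr2, the same type of factor at a far lower level in GH females (0.371 CPM per kilobase, against 22.5 for Egr1), measured from 0.34 to 3.35 CPM in SI males (median 0.86) and from 0.935 to 5.07 CPM in GH males (median 3.60). All 7 SI males were below the GH median, 6 were below the GH males other than the lowest, and mouse 8 reached into the GH range. The Log2FC of -1.43 (SE 0.373, edgeR adjusted p = 0.295) was the lowest of the 41. In females Egr2 measured from 0.429 to 1.99 CPM in SI (median 0.927) and from 0.698 to 1.52 CPM in GH (median 1.15), with a Log2FC of 0.03 (SE 0.233, edgeR adjusted p = 0.956) whose sign turned under several settings. The lowest count of Egr2 was 8 reads, in SI male 25.

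Klf4, a factor also found in endothelial cells, was the 1 gene of the set higher in SI at an unadjusted p under 0.05 in both sexes. In females it measured from 5.30 to 7.38 CPM in SI (median 6.57) and from 4.02 to 5.99 CPM in GH (median 5.06), with 5 of 8 SI mice above the highest GH mouse and a Log2FC of 0.30 (SE 0.0964, edgeR adjusted p = 0.0937). In males it measured from 6.16 to 10.3 CPM in SI (median 7.55) and from 4.58 to 7.01 CPM in GH (median 5.89), with 5 of 7 SI mice above the highest GH mouse and a Log2FC of 0.27 (SE 0.115, edgeR adjusted p = 0.354). The female value passed by DESeq2 (adjusted p = 0.0463), by limma-voom (0.0152), with the length and GC trend removed (0.0474) and without GH female 46 (0.0374), and in the other settings over all females its adjusted p ran from 0.0666 to 0.244. The endothelial marker sum given above was higher in SI in the same mice, and its part in the Klf4 values was not tested.

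Npas4, a neuron-specific factor switched on by calcium entry, and the nuclear receptors Nr4a1, Nr4a2 and Nr4a3 had 0 genes at an unadjusted p under 0.05 in females and 1 lower in males. That 1 was Nr4a1, an orphan receptor that limits spine density in pyramidal neurons. It measured from 31.1 to 64.3 CPM in SI males (median 39) and from 37.4 to 82.8 CPM in GH males (median 70.2), with a Log2FC of -0.56 (SE 0.169, edgeR adjusted p = 0.3). As for Fos, all 7 SI males were below all GH males except mouse 1, the next lowest of which was at 64.4 CPM. In females Nr4a1 measured from 35.3 to 61.4 CPM in SI (median 38.8) and from 33.3 to 54.2 CPM in GH (median 41.6), with a Log2FC of 0.07 (SE 0.112, edgeR adjusted p = 0.793).

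Npas4 measured from 2.89 to 7.05 CPM in SI males (median 5.35) and from 3.48 to 9.22 CPM in GH males (median 6.67), with a Log2FC of -0.28 (SE 0.188, edgeR adjusted p = 0.521). In females it measured from 3.12 to 6.51 CPM in SI (median 4.27) and from 4.25 to 7.05 CPM in GH (median 4.51), with a Log2FC of -0.07 (SE 0.146, edgeR adjusted p = 0.846). SI and GH mice overlapped in both sexes, with 4 of 8 SI females and 1 of 7 SI males below the lowest GH mouse. Nr4a2 and Nr4a3 lay within the range of this role, from -0.07 to 0.07 in females and from -0.56 to -0.07 in males.

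A group of 7 genes encodes proteins that act at the synapse, are secreted, or signal in other ways. In females 4 of the 7 were higher at an unadjusted p under 0.05 and 0 lower, and in males 0 were higher and 2 lower. Arc, whose protein drives removal of AMPA receptors from the synapse, measured from 31.8 to 160 CPM in SI males (median 78.8) and from 62.5 to 194 CPM in GH males (median 161). All 7 SI males were below the GH median, and 6 were below the GH males other than mouse 1, which began at 125 CPM. The Log2FC was -0.75 (SE 0.249, edgeR adjusted p = 0.312). In females Arc measured from 51.4 to 183 CPM in SI (median 68.1) and from 77 to 134 CPM in GH (median 103), with 5 of 8 SI mice below the lowest GH mouse, 1 above the highest, and a Log2FC of -0.13 (SE 0.217, edgeR adjusted p = 0.793). Without SI female 52, which had the highest Arc, the Log2FC was -0.39 (edgeR adjusted p = 0.203).

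Homer1, a scaffold that links metabotropic glutamate receptors to the postsynaptic density, differed in direction between the sexes at an unadjusted p under 0.05. Its counts per gene add up the short form that activity induces and the long constitutive forms, which cannot be told apart here. In females it measured from 69.6 to 88.2 CPM in SI (median 80.1) and from 60.6 to 78.6 CPM in GH (median 73.4), with a Log2FC of 0.17 (SE 0.0535, edgeR adjusted p = 0.0808). In males it measured from 60.6 to 92.3 CPM in SI (median 77.6) and from 68 to 114 CPM in GH (median 87.5), with a Log2FC of -0.23 (SE 0.0836, edgeR adjusted p = 0.325). In females 5 of 8 SI mice were above all GH mice, and in males 1 of 7 was below all of them. The female value passed by DESeq2 (adjusted p = 0.0372) and in no other setting, with adjusted p from 0.053 to 0.317 in the others over all females.

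Nptx2, a secreted pentraxin that clusters AMPA receptors, measured from 24.4 to 35.9 CPM in SI females (median 30.4) and from 18.4 to 34.6 CPM in GH females (median 24.5), with a Log2FC of 0.26 (SE 0.0797, edgeR adjusted p = 0.0715). Of the 8 SI females 7 were above the GH median. Nptx2 passed by DESeq2 (adjusted p = 0.0218) and without GH female 46 or 78 or SI female 41 (0.0109, 0.0366 and 0.0458), and in the other settings over all females its adjusted p ran from 0.0546 to 0.247. In males it measured from 21 to 41.8 CPM in SI (median 25.6) and from 25.1 to 37.4 CPM in GH (median 28.4), with a Log2FC of 0.06 (SE 0.125, edgeR adjusted p = 0.873).

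Plk2, a kinase that acts in the downscaling of active synapses, measured from 126 to 200 CPM in SI females (median 161) and from 119 to 157 CPM in GH females (median 144), with a Log2FC of 0.17 (SE 0.0544, edgeR adjusted p = 0.0803). Of the 8 SI females 5 exceeded all GH females. Plk2 passed by DESeq2 (adjusted p = 0.0235), with 1 surrogate variable more (0.0326), without the filter (0.0375), with the length and GC trend removed (0.024) and without SI female 41 or 52 or GH female 46 or 79 (0.0386, 0.0402, 0.0392 and 0.0483), and in the other settings its adjusted p reached up to 0.484. In males it measured from 109 to 191 CPM in SI (median 135) and from 140 to 185 CPM in GH (median 156), with 4 of 7 SI mice below all GH mice and yet a Log2FC of 0.00 (SE 0.0743), since the fitted value is net of the surrogate variables and the raw difference in mean log2 CPM was -0.17. Rgs2, a regulator of G protein signalling, measured from 34.6 to 46 CPM in SI and 33.5 to 41.5 CPM in GH females, and from 37.6 to 58.3 CPM in SI and 36.3 to 43.6 CPM in GH males. Inhba and Ptgs2, which encode an activin subunit and the inducible cyclooxygenase, lay with the others of this role from -0.13 to 0.26 in Log2FC in females and from -0.75 to 0.12 in males.

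A group of 10 genes encodes phosphatases and other proteins that damp kinase signalling or act in feedback. In females 1 of the 10 rose, 2 were higher at an unadjusted p under 0.05 and 0 were lower, and in males 0 were higher and 3 lower at that p. Dusp14, a dual-specificity phosphatase that acts on MAP kinases, measured from 18 to 23.8 CPM in SI females (median 20.1) and from 14 to 19.7 CPM in GH females (median 16). All 8 SI females exceeded the GH median and 6 exceeded every GH female. It rose by a Log2FC of 0.26 (SE 0.0557, edgeR adjusted p = 0.019), the only call of the set in either sex by this test. The call was lost without surrogate variables (Log2FC 0.28, adjusted p = 0.129) and with the first digit of a position code in the sample labels in their place (0.30, 0.14). It was also lost without SI female 68 (0.23, adjusted p = 0.108), GH female 71 (0.20, 0.0848) or SI female 63 (0.25, 0.0509). In males Dusp14 measured from 17.5 to 28.3 CPM in SI (median 24.8) and from 17.1 to 24.7 CPM in GH (median 19.8), with a Log2FC of -0.02 (SE 0.0919, edgeR adjusted p = 0.944) against a raw difference of 0.14. The SI males with open circles in the plot of levels by mouse, 25, 33 and 39, were the 3 highest, and without them the Log2FC was -0.13 (SE 0.0736, edgeR adjusted p = 0.742).

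Dusp1, the MAP kinase phosphatase most often induced with Fos, measured from 11.3 to 29.1 CPM in SI males (median 17.8) and from 16.8 to 35.5 CPM in GH males (median 28.5), with a Log2FC of -0.52 (SE 0.178, edgeR adjusted p = 0.316). Of the 7 SI males 6 were below all GH males but mouse 1. In females it measured from 13 to 25.1 CPM in SI (median 17.1) and from 15.6 to 23.3 CPM in GH (median 20.8), with a Log2FC of -0.10 (SE 0.136, edgeR adjusted p = 0.736).

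Dusp4, a nuclear phosphatase of the same family, measured from 14.2 to 26.2 CPM in SI females (median 20.8) and from 13 to 20.2 CPM in GH females (median 18.3), with a Log2FC of 0.21 (SE 0.0668, edgeR adjusted p = 0.0924). Of the 8 SI females 5 exceeded all GH females. Dusp4 passed by DESeq2 (adjusted p = 0.0487), with the length and GC trend removed (0.0304) and without GH female 46 (0.0368), and in the other settings over all females its adjusted p ran from 0.0528 to 0.546. In males it measured from 4.50 to 28.4 CPM in SI (median 18.7) and from 17.6 to 26.8 CPM in GH (median 21.3), with 3 SI mice under the lowest GH mouse and 1 above the highest. Its Log2FC of -0.14 (SE 0.0879, edgeR adjusted p = 0.493) was far from the raw difference of -0.72.

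Tiparp, an ADP-ribosyltransferase induced by growth signals and by the aryl hydrocarbon receptor, measured from 7.90 to 13.2 CPM in SI males (median 11.1) and from 11.4 to 18.7 CPM in GH males (median 15.3), with a Log2FC of -0.43 (SE 0.123, edgeR adjusted p = 0.295). All 7 SI males were below the GH median and 4 were below the lowest GH male. In females it measured from 11.4 to 17.6 CPM in SI (median 13.2) and from 13.5 to 19 CPM in GH (median 14.3), with a Log2FC of -0.16 (SE 0.094, edgeR adjusted p = 0.369). Plk3, a stress-responsive kinase, measured from 6.52 to 8.64 CPM in SI and 6.43 to 8.58 CPM in GH females, and from 3.87 to 10.8 CPM in SI and 7.34 to 8.95 CPM in GH males, where SI mice lay on both sides. The other genes of this role, Dusp5, Dusp6, Sik1, Pim1 and Trib1, lay within the range of the 10, from -0.16 to 0.26 in females and from -0.52 to 0.14 in males. The 5 growth arrest and small early response genes, Btg2, Gadd45b, Gadd45g, Ier2 and Ier5, had 0 genes at an unadjusted p under 0.05 in either sex, with Log2FC from -0.09 to 0.17 in females and from -0.14 to 0.05 in males.

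Leaving out the 3 SI males that stood apart left 4 SI against 8 GH males and kept the lowest values of the set close to those in all males. Of the 41 genes, 9 were lower at an unadjusted p under 0.05, where 2.89% of all genes were, and 0 genes of the table were called. All 9 were among the 12 lower at that p in all males, and all 12 were still lower. Those 12 were picked by their p in data that share these 4 SI and 8 GH males, so this is no independent check. The 9 were Fos, Fosb, Fosl2, Egr2, Nr4a1, Arc, Homer1, Dusp1 and Tiparp. The Log2FC was -0.92 for Fos (SE 0.292), -1.38 for Egr2 (SE 0.446), -0.74 for Arc (SE 0.289), -0.55 for Nr4a1 (SE 0.209) and -0.54 for Dusp1 (SE 0.211), with an adjusted p of 0.742 for each. At an unadjusted p under 0.05, 2 of the 41 were higher, Klf4 (0.26, SE 0.114) and Ptgs2 (0.23, SE 0.0817), where 2.99% of all genes were. The median Log2FC of the 41 was -0.15.

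Leaving out single mice changed the male calls in 1 case. Without SI male 27, 6 of the 41 were called, Egr2, Egr3, Fosb, Fosl2 and Tiparp lower and Jund higher, while 15.3% of all genes were called. That is 6 of 41 beside 15.3% of the table, so the share in the set was near the background. Without GH male 1, which was low for Fos, Arc, Npas4, Nr4a1 and Dusp1, the Log2FC of Fos was -1 and that of Nr4a1 -0.67. In that refit 0 of the 41 and 0% of all genes were called. Over the 15 males left out in turn, between 10 and 16 of the 41 were lower at an unadjusted p under 0.05. The share of all genes at that p was not taken in these refits, so the counts have no background. In females, leaving out 1 mouse gave between 0 and 6 calls. There were 6 calls, all higher, without GH female 46, when 8.55% of all genes were called. There were 0 calls without SI female 68 or GH female 71, when 0.55% and 2.77% of all genes were called.

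**Figure D3:**
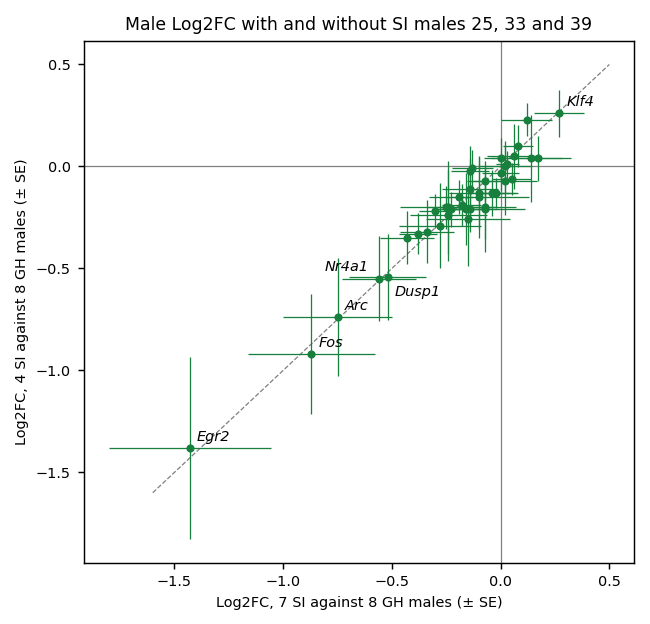
Log2FC of the 41 genes in males with all mice (horizontal axis, 7 SI against 8 GH) and without SI males 25, 33 and 39 (vertical axis, 4 SI against 8 GH), with standard errors on both axes. The dashed line marks equal values, and the lowest genes, Egr2, Fos, Arc, Nr4a1 and Dusp1, lie near it.

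The difference between the sexes was tested as the interaction of sex and housing over the 30 mice. Of the 41 genes 0 passed the adjusted threshold, as did 0 of 16391 genes (0%) in edgeR, while 1226 genes (7.48%) had an unadjusted p under 0.05. At an unadjusted p under 0.05 the SI effect was lower in males than in females for 13 of the 41, where 4.94% of all genes were, and higher for 0, where 2.54% were. The lowest adjusted p was that of Dusp14, with a difference in Log2FC, males minus females, of -0.38 (SE 0.0752, edgeR adjusted p = 0.208), followed by Dusp4 (-0.30, SE 0.0978, adjusted p = 0.604) and Egr1 (-0.50, SE 0.165, adjusted p = 0.604). DESeq2 called Dusp14 (adjusted p = 0.0153), beside 0.0427% of all genes. Over the alternative settings the Dusp14 difference ran from -0.39 to -0.13, and over single mice left out from -0.41 to -0.20. The other 10 were Fosb, Nr4a1, Egr3, Nfil3, Homer1, Egr2, Ier5, Atf3, Dusp6 and Nptx2. For Fos and Arc the difference was -0.72 (SE 0.417, edgeR adjusted p = 0.711) and -0.59 (SE 0.367, edgeR adjusted p = 0.734). The difference was below 0 for 36 of the 41, with a median of -0.17 against -0.016 over all genes. In single mice, leaving out SI male 7 gave 2 calls, Dusp4 and Egr3, when 2.35% of all genes were called. Leaving out GH female 47 gave 1, Dusp14, when 0.0305% of all genes were called.

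In GH mice the mean CPM was higher in males than in females for 38 of the 41 genes and lower for 3, Maff, Gadd45g and Tiparp, and the ratio of males to females had a median of 1.22 and ran from 0.958 to 2.95. The highest ratio was that of Egr2, followed by Fos and Egr1. Fos measured 14.4 ± 3.99 CPM in GH males (SD, n = 8) and 7.55 ± 1.62 CPM in GH females (SD, n = 7), and SI males, at 7.69 ± 3.36 CPM (SD, n = 7), were close to SI females, at 7.16 ± 3.62 CPM (SD, n = 8). Egr1 measured 124 ± 25.3 CPM in GH males (SD, n = 8) and 69.7 ± 9.92 CPM in GH females (SD, n = 7). In SI mice the mean was higher in males for 25 of the 41 genes and lower for 15, with a median ratio of 1.04. TMM scaling was done within each sex and the ratio was not taken over all genes. A shift shared by the whole table therefore cannot be told apart from one of the set. These levels between the sexes were not tested.

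The genes upstream and downstream of the set were counted from 2 lists. Of 28 regulators of activity-dependent transcription, such as CREB, SRF, MEF2 and their kinases, 0 rose and 3 fell in SI females, where 0.961% of all genes rose and 2.93% fell, and 0 passed in males, where 0% did. Those that fell in females were Hdac5, a class II deacetylase that represses MEF2 targets (Log2FC -0.22, SE 0.0478, edgeR adjusted p = 0.0202), Crtc1, a CREB coactivator (-0.19, SE 0.049, 0.0407), and Mapk3, which encodes the kinase ERK1 (-0.14, SE 0.0375, 0.0448). In males the smallest p-values of this list were those of Rps6ka2 (-0.23, SE 0.0686, edgeR adjusted p = 0.3) and Crtc1 (-0.22, SE 0.0715, 0.312). Of 18 late activity-response genes, 2 rose and 0 fell in females, beside the same 0.961% and 2.93% of all genes, and 0 passed in males. Scg2, a precursor of secreted peptides, rose by 0.18 (SE 0.0436, edgeR adjusted p = 0.0319) and Npy, the neuropeptide Y gene, by 0.15 (SE 0.0365, 0.035). All 5 female calls were lost without surrogate variables (adjusted p from 0.13 to 0.276), with the position digit in their place (0.122 to 0.264), and without SI female 49, 63 or 68 or GH female 48 or 54. Some of the 5 were also lost without SI female 41, 45, 53 or 73 or GH female 71 or 79, and no sign turned. In females 9 of the 18 were higher at an unadjusted p under 0.05, where 9.29% of all genes were, and 0 were lower, where 11% were. The smallest p in males was that of Pcsk1, a convertase of prohormones, at -0.34 (SE 0.0917, edgeR adjusted p = 0.295). Without SI male 27, Pcsk1, Rps6ka2 and Crtc1 were all called lower, in the refit that called 15.3% of all genes.

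The 41 genes varied together between mice more than genes did in general. For this, log2 CPM was centred on the mean of each housing group, so that housing itself does not enter, and Pearson r was taken over the 15 mice of a sex. The median r over the 820 pairs of the set was 0.20 in females and 0.24 in males, against 0.00 over all pairs of genes in each sex. Pairs with r over 0.5 made up 22.2% of the set's pairs in females, against 12.6% of all pairs, and 29.3% in males, against 23.4%. Within single groups the median r was 0.19 in GH females, 0.22 in SI females, 0.20 in GH males and 0.30 in SI males, and 0.42 in the 4 SI males left without the 3 that stood apart. Not all pairs were positive, and r reached down to -0.77 in females and -0.92 in males. The 2 values of a pair come from the same libraries, so depth and composition are shared.

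**Figure D4:**
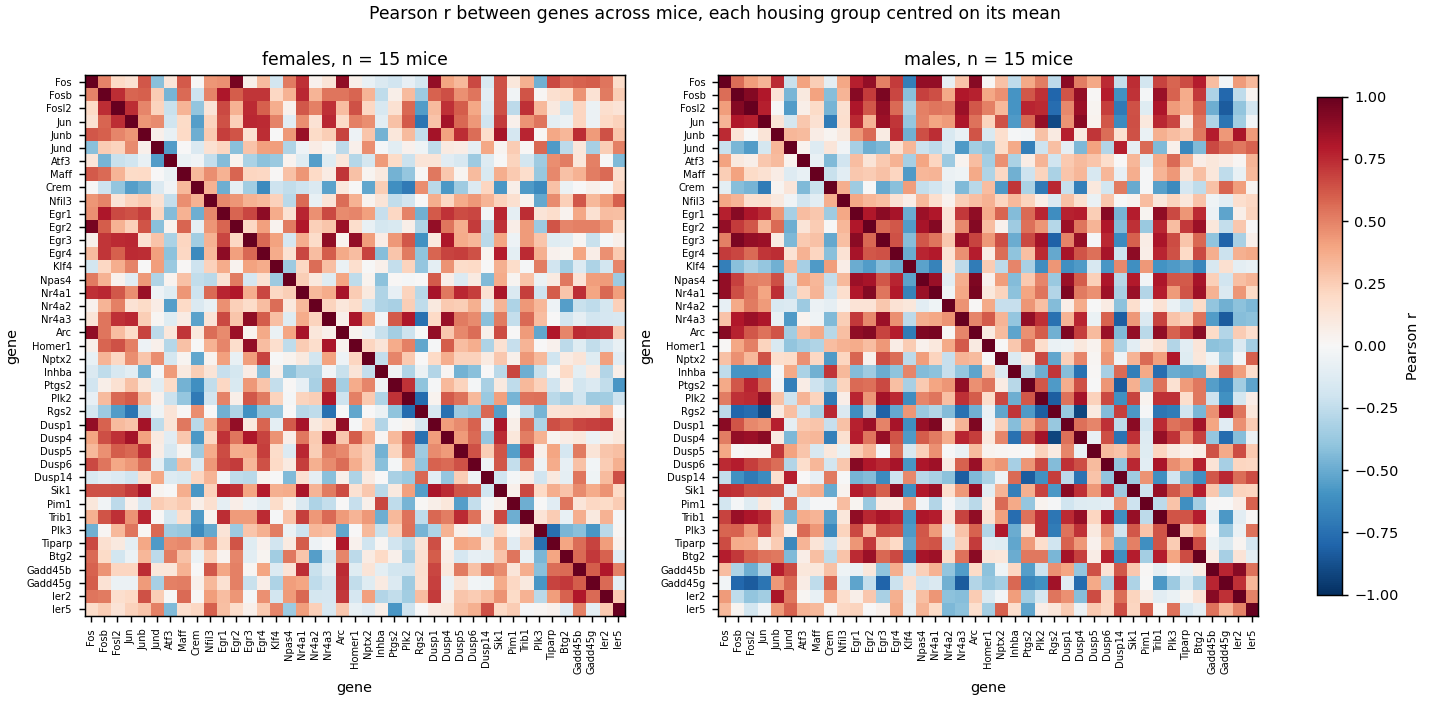
Pearson r between each pair of the 41 genes over 15 females (left) and 15 males (right), with each housing group centred on its mean and genes ordered by role, from -1 (blue) to 1 (red). Bands for Egr1, Egr4, Fosb and Dusp1 are mostly red in both sexes, and those for Rgs2 and Crem mostly blue, with median r over all pairs of 0.20 in females and 0.24 in males.

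Taking Fos as the reference, each tested gene was correlated with it over the 15 mice of a sex, 16025 genes in females and 15832 in males. Of the other 40 genes, 14 had r over 0.5 in females (35%, against 3.36% of all genes) and 18 in males (45%, against 4.07%). With r over 0.7 there were 4 in females, against 0.281% of all genes, and 10 in males, against 0.234%. The 3 genes of the whole table closest to Fos in females were Egr2, Arc and Dusp1, and the 5 closest in males were Arc, Dusp1, Nr4a1, Egr2 and Npas4, all members of the set. In females the fourth and the fifth were Abhd15 (r = 0.879) and 2410004A20Rik (r = 0.852), which are not.

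In females Egr2 followed Fos with r = 0.95 and rho = 0.95, Arc with r = 0.89 and rho = 0.89, and Dusp1 with r = 0.88 and rho = 0.87 (n = 15, permutation p of r = 1e-05 each, the smallest that 100000 permutations give, and p of rho = 1e-05, 3e-05 and 3e-05). Without SI females 52 and 68, the mice farthest from the median of Fos, r was 0.89, 0.77 and 0.79. Over all 16025 genes the adjusted p was 0.0534 for each, a value set by the number of permutations. With 1000000 permutations, a number chosen after seeing the data, Egr2 (adjusted p = 0.016) and Arc (0.0481) passed, and they were the only genes of the whole table to do so (0.0125%), while Dusp1 was at 0.0601. Nr4a1 had r = 0.73 (permutation p = 0.00231, adjusted p = 0.599) and rho = 0.70 (p = 0.00509), which dropped to r = 0.41 without the same 2 mice and so rests on them in part. Tiparp had r = 0.66 (permutation p = 0.0071, adjusted p = 0.728) and rho = 0.62 (p = 0.0151), with r = 0.45 without the 2 mice. The lowest were Plk3 (r = -0.48, permutation p = 0.0719, rho = -0.56, p = 0.0303) and Jund (r = -0.42, permutation p = 0.123, rho = -0.55, p = 0.0358), with an adjusted p of 0.886 and 0.947 and r of -0.36 and -0.57 without the 2 mice.

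In males Arc had r = 0.91 with Fos (n = 15, permutation p = 3e-05, adjusted p = 0.095) and rho = 0.76 (p = 0.00167), with r = 0.73 without SI male 25 and GH male 1, the mice farthest on Fos. Dusp1 had r = 0.90 (permutation p = 2e-05, adjusted p = 0.0792) and rho = 0.76 (p = 0.00149), Nr4a1 r = 0.88 (2e-05, 0.0792) and rho = 0.83 (0.0002), and Egr2 r = 0.88 (1e-05, 0.0792) and rho = 0.82 (0.00026). Without the 2 mice these r were 0.79, 0.84 and 0.80. Npas4 had r = 0.88 (permutation p = 9e-05, adjusted p = 0.204) and rho = 0.73 (p = 0.00307), with r = 0.59 without them. No gene passed the adjusted threshold in males, with 100000 or 1000000 permutations. Without the 3 SI males that stood apart, r was 0.97 for Arc, 0.93 for Dusp1, 0.98 for Nr4a1, 0.91 for Egr2 and 0.89 for Npas4. Klf4 was the lowest, with r = -0.68 (permutation p = 0.00426, adjusted p = 0.541) and rho = -0.56 (p = 0.0338), and r = -0.35 without the 2 mice. Rgs2 came next, at r = -0.26 (permutation p = 0.352, adjusted p = 0.588) and rho = -0.07 (p = 0.813), with r = 0.01 without the 2 mice and 0.18 without the 3 SI males.

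**Figure D5:**
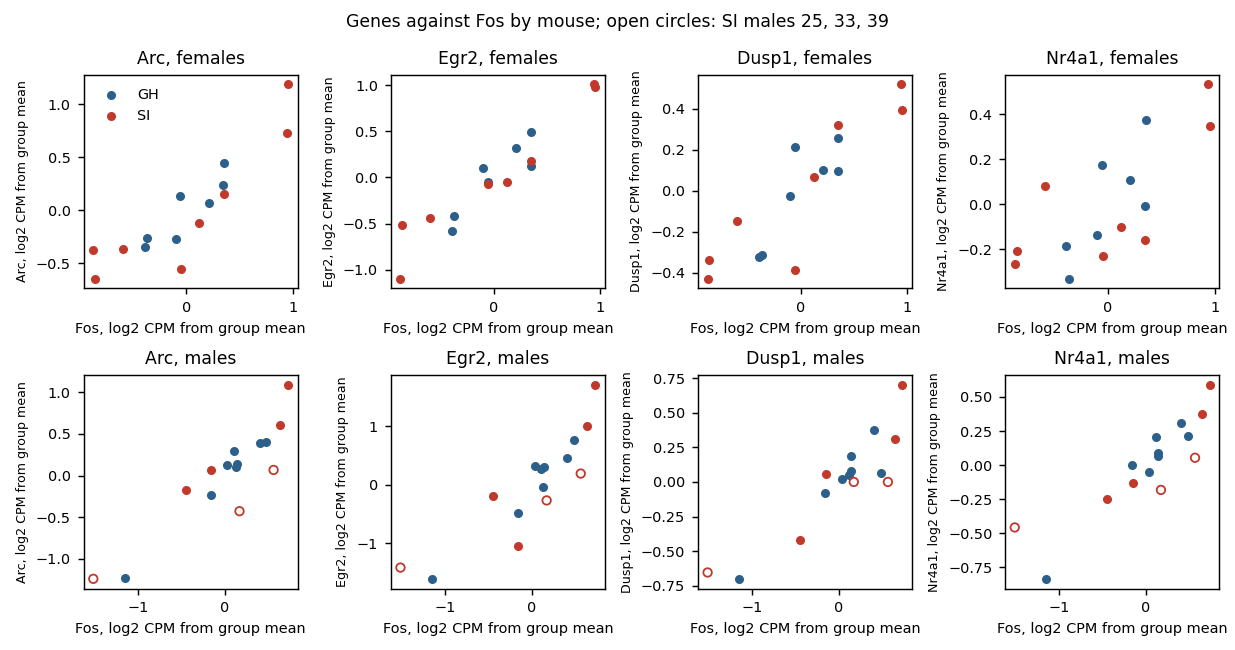
Arc, Egr2, Dusp1 and Nr4a1 (vertical axes) against Fos (horizontal axes) in 15 females (top) and 15 males (bottom), as log2 CPM minus the mean of the mouse's housing group. Blue points are GH and red points SI mice, and open circles are SI males 25, 33 and 39. Points rise from lower left to upper right, with r from 0.73 to 0.95 in females and from 0.88 to 0.91 in males, and SI male 25 and GH male 1 form the lower left end in males.

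Fos was also set against 13 other measures in each sex, 26 relations in all: log2 total counts, the first principal component and the summed level of each of 11 marker lists. None passed after adjustment over the 26 (lowest adjusted p = 0.519). The largest r in size was that of the endothelial sum in males, with r = -0.53 (n = 15, permutation p = 0.0434) and rho = -0.23 (p = 0.411), and r = 0.02 without SI male 25 and GH male 1, so that it rests on these mice. The thalamus sum in males had r = -0.45 (n = 15, permutation p = 0.0922) and rho = -0.70 (p = 0.00533), with r = -0.62 without the 2 mice and an adjusted p of 0.519. That sum of 4 markers of tissue next to the hippocampus ran from 35.1 to 124 CPM in SI males (median 58.8) and from 39.5 to 62.8 CPM in GH males (median 45.3), and its part in the levels of Fos was not tested. Log2 total counts had r = -0.44 in females (permutation p = 0.0998, rho = -0.31, p = 0.257, r = -0.18 without the 2 mice) and -0.29 in males (permutation p = 0.304, rho = -0.42, p = 0.118, r = -0.42 without the 2 mice). Dentate granule cell markers, from the cells in which many of these genes are induced, had r = 0.19 in females (permutation p = 0.487, rho = 0.12, p = 0.658, r = 0.15 without the 2 mice) and 0.30 in males (permutation p = 0.281, rho = 0.09, p = 0.764, r = -0.09 without the 2 mice).

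The sample labels also carry a position code of a digit and a letter, whose meaning is not given in the sources used here. Its digits held 2 to 5 females and 1 to 6 males, and its letters 1 to 3 mice of a sex. With housing and the digit both removed from log2 CPM, a setting chosen after seeing the data, r with Fos was 0.94 for Egr2, 0.85 for Arc, 0.85 for Dusp1 and 0.69 for Nr4a1 in females (n = 15), and 0.89 for Arc, 0.91 for Dusp1, 0.85 for Nr4a1, 0.85 for Egr2 and 0.85 for Npas4 in males (n = 15). Only digit 3 in males held 6 mice, 2 SI and 4 GH, and within it Arc had r = 0.88 with Fos (exact permutation p = 0.0264) and rho = 0.94 (p = 0.0167), with r = 0.91 without the 2 mice farthest on Fos. There Nr4a1 had r = 0.82 (exact permutation p = 0.0542), Dusp1 r = 0.81 (0.0514), Egr2 r = 0.84 (0.0444) and Npas4 r = 0.54 (0.247), with rho of 0.89, 0.83, 0.77 and 0.66 (p = 0.0333, 0.0583, 0.103 and 0.175) and r of 0.74, 0.54, 0.87 and 0.72 without the 2 mice. These genes were chosen by their r with Fos over all males. Other genes of the set ran against Fos within digit 3, such as Dusp4 (r = -0.99, exact permutation p = 0.00278), Fosl2 (-0.87, 0.0292) and Trib1 (-0.86, 0.0333). Over all males their r was 0.51, 0.42 and 0.67. Still others ran with Fos there, such as Ier2 (0.99, 0.00139) and Gadd45g (0.92, 0.0181). Within the digit, co-variation with Fos thus did not hold for the whole set. These p-values were not adjusted.

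Within digits of males, the difference in mean log2 CPM, SI minus GH, was -0.08 for Fos in digit 1 (3 SI mice against GH male 1 alone), -0.69 in digit 2 (2 SI, 2 GH) and -1.19 in digit 3 (2 SI, 4 GH). For Egr2 it was -0.15, -0.94 and -1.99, for Arc -0.09, -0.32 and -1.32, and for Nr4a1 0.10, -0.45 and -0.91. Digit 4 held 1 GH male. In females Dusp14 was higher in SI within each digit that held both groups, by 0.26 in digit 1 (2 SI, 2 GH), 0.19 in digit 2 (2 SI, 2 GH) and 0.42 in digit 4 (2 SI, 3 GH), and digit 3 held 2 SI females. Groups of 1 to 4 mice within a digit were not tested.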

How the data were processed

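Hippocampal RNA was sequenced in 15 females (8 SI, 7 GH) and 15 males (7 SI, 8 GH), 1 library per mouse. The authors deposited 1 table of raw read counts per gene, with 17477 genes and 30 columns, all matched to samples by animal number. Each gene in it had a total of at least 100 reads. The submitters' processing notes name Trimmomatic (0.39), Salmon (1.8.0), DESeq2 (1.24.0) and the build GRCm39, and these counts may therefore be rounded transcript estimates. Totals per library ranged from 18809307 to 100844898, and lower totals give less precise values for rare transcripts such as Egr2. Symbols were matched for 16439 genes (94.1%), and length and GC content for 15964 (91.3%).

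Genes with low counts were removed with filterByExpr (minimum count 10, minimum total 15), libraries were scaled by TMM, and the quasi-likelihood test of edgeR (4.0.16, R 4.3.3) was fitted in each sex with surrogate variables from sva (3.50.0), 3 in females and 2 in males, and over all 30 mice with 4 for the interaction. P-values were adjusted by Benjamini-Hochberg over all genes, with a threshold of 0.05. Alternatives were DESeq2 (1.42.0), other numbers of surrogate variables, a factor for the digit of the position code in their place, limma-voom with quality weights (limma 3.58.1), other size factors, no filter, removal of a length and GC trend, 1 fit of all groups, and leaving out each mouse. Leaving out SI males 25, 33 and 39, DESeq2 without surrogate variables, removing the position digit before correlation, and 1000000 permutations were added after seeing the data. Correlations with Fos used log2 CPM centred on each housing group and 100000 permutations, two-sided. The fits and correlations were tested on simulated data.

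The members and gene lists were chosen with earlier results of these data known. Genes were named with values as follows: Fos, Egr1, Arc, Npas4 and Nr4a1, any member past the adjusted threshold, the 6 with the smallest p in each sex, the 3 with the smallest interaction p, and the 5 highest and 2 lowest correlations with Fos in each sex. Of the pathway genes, those past the threshold and the 3 with the smallest p in each sex were named. Klf4 is named by its correlation, and Ptgs2 and Jund, where named for a change, were chosen after their values were seen. Promoters came from RefSeq (GRCm38.p6).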

Additional observations from a re-analysis of the deposited data

Results flagged for a closer look

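Levels were examined for single mice far from the rest of their group, in 80 groups of 20 named genes. In 9 of the 80 a mouse stood apart by Dixon's criterion, which chance alone meets in about 1 in 20 independent groups. The 80 groups hold the same mice, and several of the genes varied together. The flags are therefore not independent, and 9 of 80 cannot be read as an excess over that share. GH male 1 accounted for 5 of them, all low. It had 6.17 CPM of Fos where the other GH males had 12.3 to 19.2, 62.5 CPM of Arc (others 125 to 194), 37.4 CPM of Nr4a1 (others 64.4 to 82.8), 16.8 CPM of Dusp1 (others 25.9 to 35.5) and 3.48 CPM of Npas4 (others 6.15 to 9.22). GH female 78 was low in Dusp4, at 13 CPM (others 17.1 to 20.2), and in Homer1, at 60.6 CPM (others 70.7 to 78.6). GH female 79 was high in Npas4, at 7.05 CPM (others 4.25 to 5.21), and GH male 2 was high in Fosb, at 11 CPM (others 8.18 to 9.37).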

How the results depend on the processing

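No paired analysis was possible because each animal number occurs in 1 group and the groups share none. The number of genes of the set called in females, with the share of all genes called beside it, was 1 as reported (3.89%), 7 by DESeq2 (9.54%), 2 by DESeq2 without surrogate variables (2.9%), 0 without surrogate variables or with the position digit (0%), 2 with 1 surrogate variable fewer (3.43%), with limma-voom (5.23%) or with all 4 groups in 1 fit (3.11%), 3 with 1 surrogate variable more (6.76%) or no filter (3.92%), and 5 with the length and GC trend removed (9.45%). In males it was 0 as reported and 1 by DESeq2 with (0.353%) or without surrogate variables (10.3%), and for the difference between the sexes 0 as reported and 1 by DESeq2 (0.0427%). The DESeq2 shares within a sex are of the genes to which it gave an adjusted p, fewer than those tested in edgeR. The genes behind them numbered 1262 and 401 in females, with and without surrogate variables, and 44 and 304 in males. Genes of the set correlated with Fos past the adjusted threshold numbered 0 as reported and 2 in females with 1000000 permutations, beside 0.0125% of all genes. They numbered 2 in males with the length and GC trend removed, for which the share of all genes is not given here. Leaving out 1 mouse gave 0 to 6 calls in females, 0 to 6 in males, 0 to 2 for the difference and 0 to 0 for correlations with Fos. The shares of all genes called ran from 0.55% to 8.55% in females, 0% to 15.3% in males and 0% to 2.35% for the difference. Medians of Log2FC ran from 0.01 to 0.10 in females and -0.18 to -0.07 in males, and median pairwise r from 0.15 to 0.21 and 0.17 to 0.27.

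Directions turned for values near 0. In females Egr2 was at -0.07 without surrogate variables, -0.05 with 1 fewer, with no filter or by DESeq2 without them, -0.01 with 1 more, -0.20 with the position digit, -0.30 by limma-voom and -0.08 with the length and GC trend removed. Limma-voom gave -0.06 for Nr4a1 and -0.02 for Fosb, and removing the trend gave 0.01 for Fosl2. In males Dusp14 was at 0.15 without surrogate variables, 0.16 by DESeq2 without them, 0.11 with the position digit and 0.02 by limma-voom, and Nptx2 at -0.10, -0.09, -0.14 and -0.05 likewise, -0.09 with 1 surrogate variable more and -0.02 with all groups in 1 fit. Npy was at -0.02 with 1 surrogate variable more and -0.03 without SI males 25, 33 and 39, and Mapk3 at -0.02 without these mice and -0.05 with the trend removed. The difference between the sexes was 0.03 with the position digit and 0.01 by limma-voom for Npas4, and 0.07 without surrogate variables for Klf4, and r of Rgs2 with Fos was 0.18 without the 3 males. Over single mice left out, Log2FC ranged in females from -0.22 to 0.12 for Fos, -0.03 to 0.12 for Nr4a1 and -0.20 to 0.16 for Egr2, in males from -0.17 to 0.06 for Dusp14, -0.10 to 0.18 for Nptx2, -0.04 to 0.25 for Npy and -0.03 to 0.12 for Mapk3, and as a difference from -0.19 to 0.01 for Npas4 and -0.11 to 0.06 for Klf4, and r of Rgs2 from -0.43 to 0.17. The cause of these changes was not tested. The lowest count of Egr2 was 8 reads.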
